A study of Mus musculus with 16 samples.

Results

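PGE2 lowered the transcripts of *Igfbp4*, *Aqp9*, *Car12*, *Epcam*, *Tns1* and *Ptp4a3* in cultured TCF1+CD8+ T cells in at least 1 stimulation state, whereas *Lamc1*, chosen with them, rose. These 7 genes, out of 54532 in the count table, encode secreted, cell-surface and matrix proteins or proteins that act at the plasma membrane. They had been picked by name for a fall with PGE2, in some only in 1 state, from these same 16 samples. Their PGE2 responses are therefore given as a description, without tests. The name of the set did not hold for every member: *Lamc1* was higher with PGE2 in unstimulated cells and did not move apart in stimulated cells, and *Tns1* and *Ptp4a3* encode proteins of the cytoplasmic side of the membrane.

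The cells were CD8+ T cells from spleens of C57BL/6J mice, isolated as naive cells and activated repeatedly in culture over 4 days with low-dose IL-2 and beads carrying antibodies against CD3 and CD28 (aCD3/CD28 beads), which yields antigen-experienced cells that keep the transcription factor TCF1. They were left untreated or incubated with 100 ng/mL PGE2 for 1 h and then kept for 4 h in IL-2 at 85 U/mL, either alone (unstimulated) or with aCD3/CD28 beads at 1 bead per cell (stimulated). All 4 groups thus shared the earlier bead activation and the IL-2, and each held 4 replicates. Bulk poly(A) RNA-seq gave 22678254 to 42950763 counts per sample, and levels are given as CPM, each count relative to the total of its library, after scaling for library composition. The labels do not say whether replicates were separate cultures or animals, so p-values measure only the spread between these samples, which may be technical.

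PGE2 is a lipid mediator made from arachidonic acid by cyclooxygenases. On T cells it acts through the receptors EP2 and EP4, which raise cyclic AMP. The 7 genes have separate roles: IGFBP4 is a secreted protein that holds insulin-like growth factors away from their receptor, AQP9 is a channel for water, glycerol and other small solutes, and CAR12 is an extracellular carbonic anhydrase that turns CO2 into bicarbonate and protons. EPCAM is a homophilic adhesion molecule best known from epithelia, tensin 1 ties integrin tails to actin, LAMC1 is the gamma chain found in most laminins of basement membranes, and PTP4A3 (PRL-3) is a prenylated phosphatase that binds magnesium transporters of the CNNM family. In CD8+ T cells AQP9 has been tied to glycerol uptake during memory formation.

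The libraries carried the transcripts of CD8+ T cells. *Cd8a* had group means of 718 to 1150 CPM, and *Tcf7*, which encodes TCF1, had 308 to 1190 CPM. *Crem*, a gene induced by cyclic AMP, had 73.7 ± 18.1 CPM (SD, n = 4) in unstimulated untreated cells and 231 ± 12.8 CPM with PGE2, and 81.9 ± 16.4 and 223 ± 18.3 CPM in stimulated cells. *Nr4a1*, a gene induced by the T cell receptor, had means of 78.7 and 74.3 CPM in the unstimulated groups and 1200 and 941 CPM in the stimulated groups. Several of the 7 genes are better known from other cells, so markers of those cells were read in the same libraries. All 8 myeloid markers, all 6 fibroblast markers, all 6 erythroid markers and 5 of 6 endothelial markers stayed under 1 CPM in every library, the exception being *Pecam1*. *S100a8*, *S100a9*, *Csf3r*, *Dcn* and *Cd207*, the marker of Langerhans cells, had no count in any library. Of 8 epithelial markers 7 likewise stayed under 1 CPM, and the summed list lay at 4.28 to 6.38 CPM in unstimulated untreated cells, 2.42 to 3.69 with PGE2, 2.54 to 4 in stimulated untreated cells and 1.11 to 1.69 with PGE2. *Cdh1* was the largest part of that sum in each group. The summed endothelial list, nearly all *Pecam1*, which T cells express as well, was at 97 to 121 CPM in unstimulated untreated cells, 133 to 164 with PGE2, 47.7 to 51.5 in stimulated untreated cells and 65.3 to 76.3 with PGE2. The dendritic cell list, with 5 of 8 markers under 1 CPM and *H2-Ab1* the highest, summed in the same order of groups to 13.9 to 26.6, 18.6 to 36.1, 27.4 to 45.9 and 31.5 to 53.7 CPM. The B cell list, with 3 of 6 markers under 1 CPM, summed to 12 to 21.2, 10.1 to 17.6, 4.92 to 12 and 4.47 to 10 CPM. The part of these cells in the results below was not tested. Of the remaining lists, 4 of 5 platelet markers were under 1 CPM, and the 3 CD4+ T cell markers summed to 14.5 to 40.1 CPM, mostly *Zbtb7b*. In bulk RNA, fewer cells of a type and less RNA per cell cannot be told apart.

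Promoter sequences of 5 of the 7 genes were found in RefSeq (GRCm38.p6), *Lamc1* and *Ptp4a3* having no entry. The 250 bases before the start site are printed for *Igfbp4*, *Aqp9*, *Car12* and *Epcam*, since the first 3 fell together in unstimulated cells and *Epcam* did not. They lie at chr11:99040994-99041243 on the plus strand, chr9:71162634-71162883 on the minus strand (1 of 2 listed starts of *Aqp9*), chr9:66713436-66713685 on the plus strand and chr17:87635729-87635978 on the plus strand. Capitals mark the motifs searched, in either orientation, and each line runs 5′ to 3′ on the strand of the gene.
Igfbp4: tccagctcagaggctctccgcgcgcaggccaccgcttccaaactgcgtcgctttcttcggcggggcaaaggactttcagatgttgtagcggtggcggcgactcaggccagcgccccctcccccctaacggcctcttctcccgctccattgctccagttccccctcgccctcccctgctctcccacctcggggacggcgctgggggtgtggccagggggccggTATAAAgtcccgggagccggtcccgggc
Aqp9: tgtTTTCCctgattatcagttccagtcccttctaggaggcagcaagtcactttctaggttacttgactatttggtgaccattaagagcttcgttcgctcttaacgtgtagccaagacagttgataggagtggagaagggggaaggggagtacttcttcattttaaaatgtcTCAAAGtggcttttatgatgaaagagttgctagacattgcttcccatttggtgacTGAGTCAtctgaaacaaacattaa
Car12: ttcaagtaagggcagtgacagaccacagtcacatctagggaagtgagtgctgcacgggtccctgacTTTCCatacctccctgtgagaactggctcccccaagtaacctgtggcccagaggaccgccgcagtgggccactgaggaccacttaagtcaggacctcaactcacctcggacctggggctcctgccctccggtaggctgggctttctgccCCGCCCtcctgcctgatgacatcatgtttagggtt
Epcam: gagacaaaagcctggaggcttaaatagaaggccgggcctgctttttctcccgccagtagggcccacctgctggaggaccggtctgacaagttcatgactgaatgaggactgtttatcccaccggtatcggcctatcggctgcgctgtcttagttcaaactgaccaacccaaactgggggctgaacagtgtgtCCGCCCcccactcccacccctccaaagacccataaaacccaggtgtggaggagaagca
The motifs were the cyclic AMP response element TGACGTCA, its core TGACG (contained in the former), the AP-1 site TGANTCA, the NFAT core GGAAA, the TCF/LEF core CTTTGA, the GC box GGGCGG and the TATA box TATAAA, each on both strands. They were sought from 250 bases before to 50 bases after the start. None of the 6 windows of the 5 genes held TGACGTCA or TGACG, which occurred in 1.79% and 20.8% of all 32851 promoters of this length. The *Igfbp4* promoter held TATAAA 28 bases before the start (13.6% of all promoters) and was rich in GC, at 71.3% against a median of 52.7%. The printed *Aqp9* promoter held TGAGTCA, a form of the AP-1 motif, 24 bases before the start (7.81% of all promoters), CTTTGA at 79 bases (16% of all promoters) and GGAAA at 247 bases (61.3%), whereas its other start had only GGAAA. *Car12* held GGGCGG 35 bases before the start and GGAAA at 184 bases, and *Epcam* held GGGCGG at 58 bases. *Tns1* held 4 copies of GGGCGG, a motif of 35.7% of all promoters. The *Igfbp4*, *Aqp9* and *Car12* promoters thus shared no motif of this list except GGAAA in the latter pair. A match is only a match of letters. Both listed starts of *Aqp9* lie inside the gene as counted, whose 5′ end is at chr9:71168682. Which start these cells used was not tested.

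Among the 7 genes *Igfbp4* and *Ptp4a3* were the most abundant in unstimulated untreated cells and *Aqp9* the least. On the length-corrected FPKM scale *Igfbp4* averaged 39.9 FPKM in unstimulated untreated cells, above 91.5% of the 15096 genes in the 16-sample fit. *Ptp4a3* averaged 24.3 FPKM, *Lamc1* 3.46, *Epcam* 2.16, *Tns1* 1.63, *Car12* 1.56 and *Aqp9* 1.03 FPKM, the last above 27% of genes. The fitted log2 fold change of PGE2 over untreated is used below with its standard error (SE), and a gene counts as differentially expressed (DEG) where it changed by 2-fold or more with an adjusted p under 0.05.

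*Igfbp4* (ENSMUSG00000017493, chr11:99041244-99054392, plus strand, GRCm38) fell with PGE2 about equally with and without beads. Its level in the 4 unstimulated untreated samples was 209, 180, 197 and 155 CPM for replicates 1 to 4, and with PGE2 it was 43, 36, 42.5 and 39.1 CPM. In stimulated cells it was 127, 104, 131 and 105 CPM without PGE2 and 25.6, 19.3, 28.7 and 27.3 CPM with it. No treated sample reached an untreated one, and the 4 groups did not overlap at all, running from unstimulated untreated down over stimulated untreated and unstimulated PGE2 to stimulated PGE2. The log2 fold change was -2.19 (SE 0.0953) in unstimulated and -2.21 (SE 0.13) in stimulated cells, so that 22% and 21.7% of the untreated level were left. The effect in stimulated minus that in unstimulated cells was -0.00705 (SE 0.166) on the log2 scale. In stimulated cells 4 of the 13922 genes tested had a lower fold change. This rank, like those of the other genes below, describes genes picked for their PGE2 response.

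*Aqp9* (ENSMUSG00000032204, chr9:71110659-71168682, minus strand) had the lowest fold changes of the 7 genes in both states, on a low level. Its level was 4.89, 6.06, 3.8 and 3.1 CPM in unstimulated untreated cells and 0.843, 0.563, 0.606 and 0.712 CPM with PGE2. In stimulated cells it was 5.21, 4.22, 4.04 and 3 CPM without PGE2 and 0.84, 0.46, 0.861 and 0.427 CPM with it. Treated and untreated groups stood apart in both states, while the unstimulated and stimulated groups of each treatment overlapped. These treated levels rest on 20 to 28 counts per unstimulated library and 10 to 29 per stimulated library. PGE2 gave a log2 fold change of -2.69 (SE 0.244) in unstimulated and -2.62 (SE 0.271) in stimulated cells, which left 15.5% and 16.2% of the untreated level. Between the states the effect differed by 0.0766 (SE 0.381). In stimulated cells 1 gene had a lower fold change than *Aqp9*.

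*Car12* (ENSMUSG00000032373, chr9:66713686-66766845, plus strand) was far more abundant in stimulated than in unstimulated cells, and its PGE2 fold change was nearer to 0 there, where it was no DEG. With the replicate number as a block the log2 fold change in that state was -0.66 (SE 0.0893), and every same-numbered pair was lower with PGE2. *Car12* was chosen for a fall with PGE2 in these samples, so both are a description only. Unstimulated untreated cells had 11.1, 13.6, 11.5 and 13.6 CPM and unstimulated PGE2-treated cells 2.81, 2.34, 2.42 and 3.18 CPM. Stimulated untreated cells had 84.2, 95.6, 80.1 and 67.9 CPM and stimulated PGE2-treated cells 64.1, 66.7, 46.8 and 32.9 CPM. The unstimulated groups were far apart. The stimulated groups only just failed to overlap, the lowest untreated sample being 1.02 times the highest treated one, and the 4 treated samples were spread over a wide range. The log2 fold change was -2.19 (SE 0.133) in unstimulated cells, with 21.9% of the untreated level left, and -0.63 (SE 0.2) in stimulated cells, with 64.6% left. The effect with beads minus that without was 1.57 (SE 0.262), above the value of 99.6% of the 15096 genes. Leaving out each replicate in turn gave -0.77 to -0.46 in stimulated cells, the value nearest to 0 without PGE2-treated replicate 4, the lowest sample.

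*Epcam* (ENSMUSG00000045394, chr17:87635979-87651106, plus strand) fell with PGE2 in stimulated cells and not beyond the spread of the samples in unstimulated cells. It had 3.44, 5.22, 4.53 and 5.3 CPM in unstimulated untreated cells and 3.41, 4.56, 4.35 and 5.88 CPM with PGE2, and these groups overlapped. Beads brought it to 19.3, 19.2, 18.2 and 17 CPM without PGE2, against 6.89, 7.24, 6.89 and 6.49 CPM with PGE2. The stimulated groups lay far apart, and the treated one was still above every unstimulated sample. With PGE2 the log2 fold change was -0.0017 (SE 0.193) in unstimulated cells and -1.41 (SE 0.0883) in stimulated cells, which left 37.5% of the untreated level. The difference between the states was -1.4 (SE 0.208), and 0.338% of all genes had a lower one. Of the epithelial markers, *Cdh1* reached 5.82 CPM and the other 7 had at most 0.763 CPM in any library. Whether other cells gave any of the *Epcam* reads was not tested.

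*Tns1* (ENSMUSG00000055322, chr1:73910231-74124449, minus strand) also fell mainly in stimulated cells. It had 27.8, 28.1, 25.4 and 28.2 CPM in unstimulated untreated cells and 25.3, 21.2, 19.8 and 20.4 CPM with PGE2. Stimulated untreated cells had 47, 46.1, 42.8 and 39.3 CPM and stimulated PGE2-treated cells 20.9, 20.4, 17.7 and 17.8 CPM. The stimulated groups were well apart, while in unstimulated cells the lowest untreated and the highest treated sample almost met. The log2 fold change was -0.32 (SE 0.0778) in unstimulated cells and -1.18 (SE 0.0878) in stimulated cells, leaving 80.2% and 44% of the untreated level. Stimulated minus unstimulated, the effect was -0.85 (SE 0.127). With PGE2, the stimulated and unstimulated groups overlapped.

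*Ptp4a3* (ENSMUSG00000059895, chr15:73723145-73758766, plus strand) fell in both states, more in unstimulated cells. It had 246, 240, 246 and 225 CPM in unstimulated untreated cells and 123, 111, 113 and 113 CPM with PGE2. In stimulated cells it had 225, 220, 239 and 220 CPM without PGE2 and 151, 156, 166 and 159 CPM with it. Both treated groups lay below every untreated sample, and the 2 untreated groups overlapped each other. The log2 fold change was -1.03 (SE 0.0539) in unstimulated cells, with 48.8% left, and -0.51 (SE 0.0614) in stimulated cells, with 70.3% left. The difference between the states was 0.54 (SE 0.0813).

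*Lamc1* (ENSMUSG00000026478, chr1:153218922-153332786, minus strand) was the member that went against the description of the set. It had 25, 30.3, 32.1 and 33 CPM in unstimulated untreated cells and 59, 57.7, 61.2 and 62.1 CPM with PGE2, so that every treated sample was above every untreated one. Stimulated cells had 42.8, 44.5, 39.5 and 40.7 CPM without PGE2 and 37.7, 36.6, 40.9 and 45 CPM with it, and these groups overlapped. The log2 fold change was 1.01 (SE 0.086) in unstimulated cells, 202% of the untreated level, and -0.0589 (SE 0.0796) in stimulated cells. The difference between the states was -1.06 (SE 0.121). Without unstimulated untreated replicate 1, the lowest sample, the rise was 0.93, and without unstimulated PGE2-treated replicate 3 or 4 it was 0.994 or 0.993, each just under the fold change of a DEG. The order of the groups was unstimulated PGE2, then both stimulated groups, then unstimulated untreated.

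**Figure D1:**
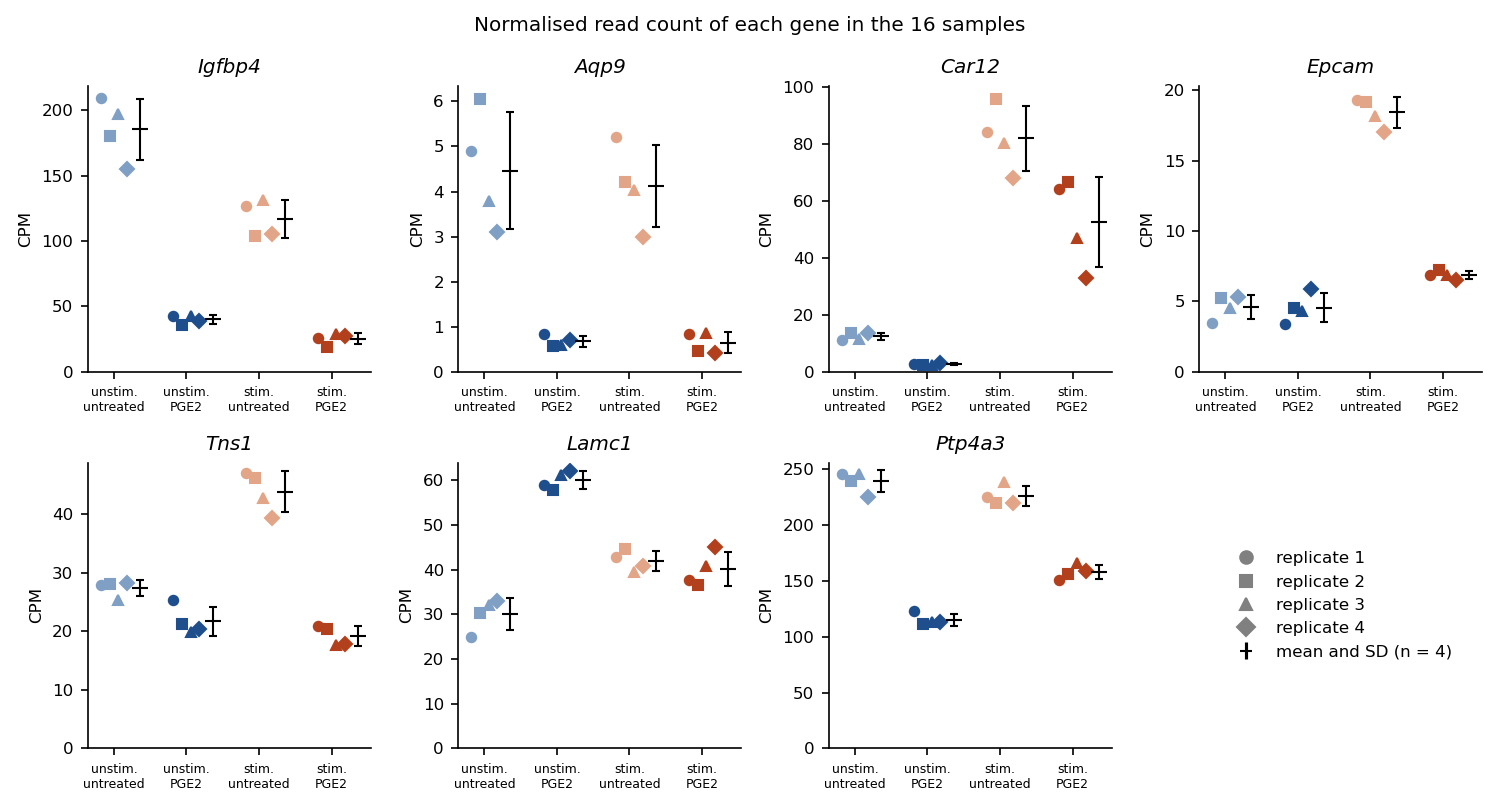
Normalised read counts (CPM, linear axis from 0) of the 7 genes in the 16 samples, by group. Points are replicates, with a symbol for each replicate number, and bars give the mean and SD of 4 replicates. *Igfbp4* and *Aqp9* are low in both PGE2 groups, *Epcam* is high only in stimulated untreated cells, and *Lamc1* is highest in unstimulated PGE2-treated cells (57.7 to 62.1 CPM).

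Counted over the set, 4 of 7 genes were DEGs lower with PGE2 in stimulated cells (*Igfbp4*, *Aqp9*, *Epcam* and *Tns1*), a call that 0.546% of all genes tested met. In unstimulated cells 4 were DEGs lower (*Igfbp4*, *Aqp9*, *Car12* and *Ptp4a3*), against 1.92% of all genes, and *Lamc1* was a DEG higher, against 1.45%. Groups without overlap and lower with PGE2 were seen for 6 genes in stimulated cells (8.32% of all genes) and 5 in unstimulated cells (16.8%), and *Lamc1* was higher without overlap in the latter (12.1%). The genes had been chosen on this contrast, so nothing can be read from these counts about PGE2. The median log2 fold change of the 7 genes was -1.18 in stimulated and -1.03 in unstimulated cells, where that of all genes was -0.0061 and -0.001. On the log2 scale the PGE2 responses fell into 3 shapes. They were similar in both states for *Igfbp4* and *Aqp9*. Falls were larger without beads for *Car12* and *Ptp4a3*, and larger with beads for *Epcam* and *Tns1*. *Lamc1* fitted none of these shapes. In CPM the fall of *Car12* was larger with beads, from a mean of 81.9 to 52.6, against 12.5 to 2.69 without.

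**Figure D2:**
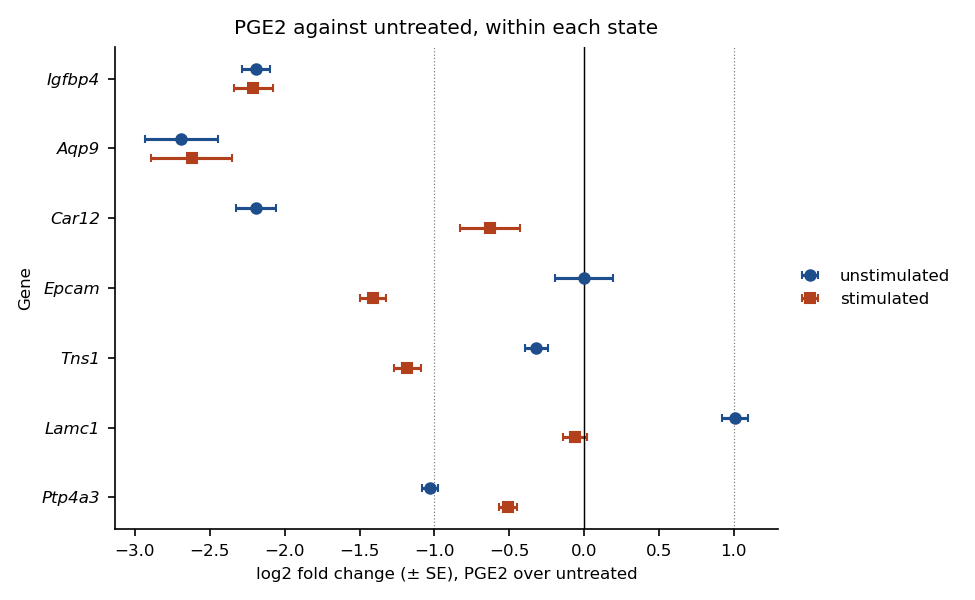
Fitted log2 fold change of PGE2 over untreated (points, with SE as bars) for each gene in unstimulated (circles) and stimulated cells (squares), 4 samples against 4. Dotted lines mark a fold change of 2. The points of *Igfbp4* and *Aqp9* lie together near -2.2 and below, those of *Car12* and *Epcam* lie apart in opposite order, and *Lamc1* has the only point above 0 (1.01).

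The response to beads is given as a description too, with no test. The genes had been chosen by their PGE2 response in each stimulation state, so the same stimulated and unstimulated values entered the choice. Without PGE2, *Car12* was at 12.5 ± 1.33 CPM in unstimulated and 81.9 ± 11.4 CPM in stimulated cells (SD, n = 4), which is 2.7 on the log2 scale (SE 0.12). *Epcam* was at 4.62 ± 0.862 and 18.4 ± 1.07 CPM, or 1.97 (SE 0.136). *Tns1* was at 27.4 ± 1.34 and 43.8 ± 3.51 CPM, or 0.67 (SE 0.0833), and *Lamc1* at 30.1 ± 3.57 and 41.9 ± 2.22 CPM, or 0.46 (SE 0.0964). In these 4 genes every stimulated sample was above every unstimulated one. *Igfbp4* was lower with beads, at 117 ± 14.3 against 185 ± 23.5 CPM, or -0.67 on the log2 scale (SE 0.109), again without overlap. The groups overlapped for *Aqp9* (-0.11, SE 0.226) and *Ptp4a3* (-0.0952, SE 0.0659). A bead response was common: 34.8% of all genes tested were lower and 31.7% higher with beads at an adjusted p below 0.05. The separation of these groups is therefore no trait of the set.

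With PGE2 present, the order of the bead responses was another. *Car12* was at 2.69 ± 0.388 CPM without and 52.6 ± 15.9 CPM with beads, or 4.31 on the log2 scale (SE 0.241). *Epcam* was at 4.55 ± 1.02 and 6.88 ± 0.306 CPM, or 0.6 (SE 0.166), and *Ptp4a3* at 115 ± 5.41 and 158 ± 6.34 CPM, or 0.47 (SE 0.0608), all 3 without overlap. *Lamc1* was lower with beads, at 40 ± 3.76 against 60 ± 1.99 CPM, or -0.57 (SE 0.0773), where without PGE2 it was higher with them. *Igfbp4* was at 40.1 ± 3.27 and 25.2 ± 4.13 CPM, or -0.65 (SE 0.118), close to its value without PGE2. The groups overlapped for *Tns1* (-0.16, SE 0.102) and *Aqp9* (-0.0197, SE 0.303). Of all genes tested with PGE2, 31.7% were lower and 32.5% higher with beads at an adjusted p below 0.05. The difference between the bead responses with and without PGE2 is the same quantity as the difference between the PGE2 responses given above. Upper-quartile scaling moved the median of all genes after beads to -0.128 without and -0.125 with PGE2, where it had been -0.031 and 0.0022. Under it *Ptp4a3* without PGE2 was at -0.19 and *Tns1* with PGE2 at -0.29.

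**Figure D3:**
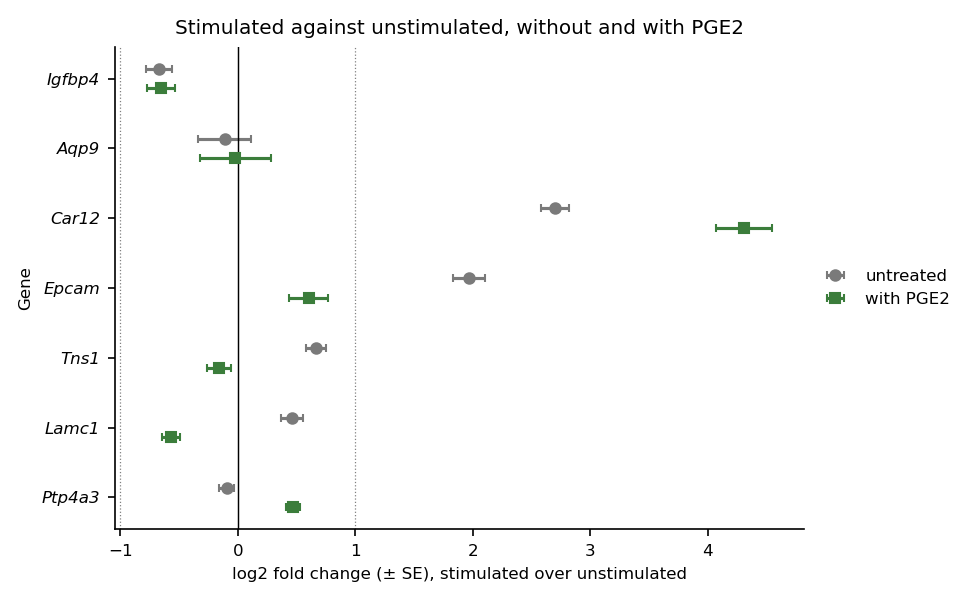
Fitted log2 fold change of stimulated over unstimulated cells (points, with SE as bars) without PGE2 (circles) and with PGE2 (squares), 4 samples against 4. Dotted lines mark a fold change of 2. *Car12* lies far above 0 in both (2.7 and 4.31), *Epcam* lies nearer to 0 with PGE2 (0.6 against 1.97), and *Lamc1* changes sides (0.46 and -0.57).

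To place the 7 genes among their families and partners, 147 other genes in 7 lists were read in the same fits. In stimulated cells 79 of them were tested, of which 6 were lower with PGE2 (7.59%, against 3.8% of all genes) and 10 higher (12.7%, against 6.04%), with a median log2 fold change of 0.03. In unstimulated cells 84 were tested, with 8 lower (9.52%, against 15.5% of all genes) and 19 higher (22.6%, against 12.9%) and a median of 0.12. With the replicate number as a block the related genes called were 46 in stimulated cells (19 lower and 27 higher, where 20.7% and 19.1% of all genes were called) and 45 in unstimulated cells (16 lower and 29 higher, where 24.2% and 23.6% of all genes were). The count of 16 in stimulated cells became 8 without untreated replicate 2 or 3 and 9 without PGE2-treated replicate 3. For the counts per list below, the shares of all genes are those without the block. They are 3.8% lower and 6.04% higher in stimulated cells, and 15.5% and 12.9% in unstimulated cells.

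In the insulin-like growth factor (IGF) axis the cells held next to no ligand transcript: *Igf1* and *Igf2* had at most 0.0254 CPM in any group mean. IGF protein in the culture medium was not measured. Of the other IGF-binding proteins *Igfbp7* was the highest, at 0.438 to 0.903 FPKM, and it was not called in either state. *Irs2*, the adaptor below the IGF-1 and insulin receptors, went from 18.6 ± 1.07 to 38.2 ± 4.36 CPM in unstimulated cells (log2 1.05, SE 0.0789, edgeR adjusted p = 6.29e-06) and from 14.8 ± 3.57 to 31.1 ± 0.901 CPM in stimulated cells (1.08, SE 0.144, edgeR adjusted p = 0.00178). *Igf1r*, the IGF-1 receptor, rose by 0.67 in both states (edgeR adjusted p = 3.43e-05 unstimulated and 0.00266 stimulated), and *Insr*, the insulin receptor, by 0.34 in unstimulated cells (edgeR adjusted p = 0.00834). *Igf2r*, which clears IGF-2 and sorts lysosomal enzymes, rose by 0.33 in unstimulated cells (edgeR adjusted p = 0.00311) and went down in stimulated cells, with a log2 fold change of -0.29 (edgeR adjusted p = 0.0115). In all, 4 of 8 tested genes of the list rose in unstimulated cells and none fell, and in stimulated cells 2 of 7 rose and 1 fell.

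Among the other aquaporins *Aqp3*, another glycerol channel, was the one with a level above 0.1 FPKM. It went from 4.99 ± 0.261 to 6.92 ± 0.233 CPM with PGE2 in stimulated cells (log2 0.48, SE 0.106, edgeR adjusted p = 0.0213), opposite to *Aqp9*, and was not called in unstimulated cells (0.0539, edgeR adjusted p = 0.759). *Gk*, the glycerol kinase, fell by 0.32 on the log2 scale in unstimulated cells, from 13.9 ± 1.39 to 11 ± 0.727 CPM (edgeR adjusted p = 0.0263), and *Gpat4*, which starts glycerolipid synthesis, rose by 0.2 (edgeR adjusted p = 0.0126). Of the list, 2 of 7 genes rose and none fell in stimulated cells, and 2 of 8 rose and 1 fell in unstimulated cells.

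The other carbonic anhydrases were low, the highest being the cytosolic *Car2* at 0.734 to 1.5 FPKM. *Car2* fell by 1.02 on the log2 scale in unstimulated cells, from 3.81 ± 0.635 to 1.85 ± 0.31 CPM (SE 0.185, edgeR adjusted p = 0.00174), alongside *Car12*. In stimulated cells it had -0.25 (edgeR adjusted p = 0.355). Among the lactate and proton carriers, *Slc16a1* (MCT1) fell by 0.62 in unstimulated cells, from 109 ± 9.26 to 69.6 ± 6.12 CPM (SE 0.0757, edgeR adjusted p = 0.000133). *Slc16a3* (MCT4) rose in both states. The rise was 0.515 in unstimulated cells, from 405 ± 23.1 to 571 ± 21.8 CPM (SE 0.0654, edgeR adjusted p = 0.000178). In stimulated cells it was 0.45, from 387 ± 19.6 to 525 ± 26.5 CPM (SE 0.0672, edgeR adjusted p = 0.00327). The bicarbonate transporter *Slc4a10* rose by 0.59 in unstimulated cells (edgeR adjusted p = 0.0155). It also rose by 1.56 in stimulated cells (SE 0.4, edgeR adjusted p = 0.0363), on a low level of 0.313 ± 0.172 against 0.904 ± 0.303 CPM. In this list 2 of 13 genes rose and none fell in stimulated cells, and 3 of 16 rose and 2 fell in unstimulated cells.

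Among the partners of EPCAM and the proteases that act on it, *Cdh1*, which encodes the adhesion molecule E-cadherin, fell in both states: from a mean of 5.23 (4.01 to 5.82) to 2.3 CPM (1.98 to 2.85) in unstimulated cells (log2 -1.18, SE 0.165, edgeR adjusted p = 0.000346) and from 2.88 (2.3 to 3.3) to 0.794 CPM (0.726 to 0.878) in stimulated cells (-1.84, SE 0.199, edgeR adjusted p = 0.000555). Beads without PGE2 lowered it as well (-0.89, edgeR adjusted p = 0.00068). The tetraspanin *Cd9* fell by 0.3 in unstimulated and by 0.43 in stimulated cells (edgeR adjusted p = 0.0156 and 0.0263), and *Spint2*, a serine protease inhibitor, fell by 0.4 in stimulated cells (edgeR adjusted p = 0.0163). *Ctnnb1*, which encodes beta-catenin, rose by 0.26 in unstimulated cells (edgeR adjusted p = 0.00401). Of 13 genes tested in each state, 3 fell and none rose in stimulated cells, and 3 fell and 1 rose in unstimulated cells.

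The highest other tensin, *Tns2*, had 0.0718 to 0.113 FPKM. Of the focal adhesion genes, *Nedd9*, a docking protein of the CAS family, fell by 0.72 in stimulated cells, from 71.1 ± 9.28 to 43 ± 11.1 CPM (SE 0.17, edgeR adjusted p = 0.0282). *Parvg*, the parvin of blood cells, fell by 0.23 unstimulated and by 0.24 stimulated (edgeR adjusted p = 0.016 and 0.0271). In unstimulated cells *Bcar1*, another CAS protein, rose by 0.96 (edgeR adjusted p = 0.0286) with groups that overlapped, and *Vcl*, which encodes vinculin, rose by 0.46 (edgeR adjusted p = 0.0194). *Vcl* shares 25.5% of its exon bases with *Ap3m1* on the opposite strand, so its counts are uncertain. Of the list, 2 of 19 genes fell and none rose in stimulated cells, and 2 of 18 rose and 1 fell in unstimulated cells. The unstimulated shares, 11.1% and 5.56%, were below the 12.9% and 15.5% of all genes.

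Besides *Lamc1*, the laminin chains with a level above 0.1 FPKM were *Lamb3* and *Lama5*. *Lama5* rose with PGE2 in unstimulated cells from 3.07 ± 0.912 to 7.7 ± 0.779 CPM (log2 1.33, SE 0.194, edgeR adjusted p = 0.000436), as *Lamc1* did. *Lamb3* rose by 0.49 in unstimulated and by 0.41 in stimulated cells (edgeR adjusted p = 0.00543 and 0.0173). Among laminin receptors, *Itga3* rose by 1.11 (edgeR adjusted p = 0.00519) and *Itga7* by 0.88 (edgeR adjusted p = 0.000945) in unstimulated cells, and *Dag1*, which encodes dystroglycan, rose by 0.33 in unstimulated and by 0.47 in stimulated cells (edgeR adjusted p = 0.00909 and 0.0162). *Itgb1*, the beta chain that pairs with these integrin alpha chains, fell by 0.72 in unstimulated cells (edgeR adjusted p = 3.18e-05) and is named after its value was seen, as the single gene of the list that fell. In all, 5 of 12 genes rose in unstimulated cells, and 2 of 11 rose and none fell in stimulated cells.

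*Ptp4a2*, a phosphatase of the same family as *Ptp4a3*, was abundant and was not called with PGE2, its group means being 85.2 to 103 FPKM. Its log2 fold change was 0.0661 in unstimulated and -0.0251 in stimulated cells (edgeR adjusted p = 0.398 and 0.821). The magnesium transporter *Slc41a2* rose by 1.5 in unstimulated and by 1.76 in stimulated cells (edgeR adjusted p = 0.00211 and 0.038), the latter with overlapping groups and a low level of 0.687 ± 0.351 against 2.28 ± 1.19 CPM. *Cnnm2*, a PRL-binding magnesium transporter, rose by 0.48 in unstimulated cells (edgeR adjusted p = 0.00857). In each state 2 of 9 genes of the list rose and none fell.

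**Figure D4:**
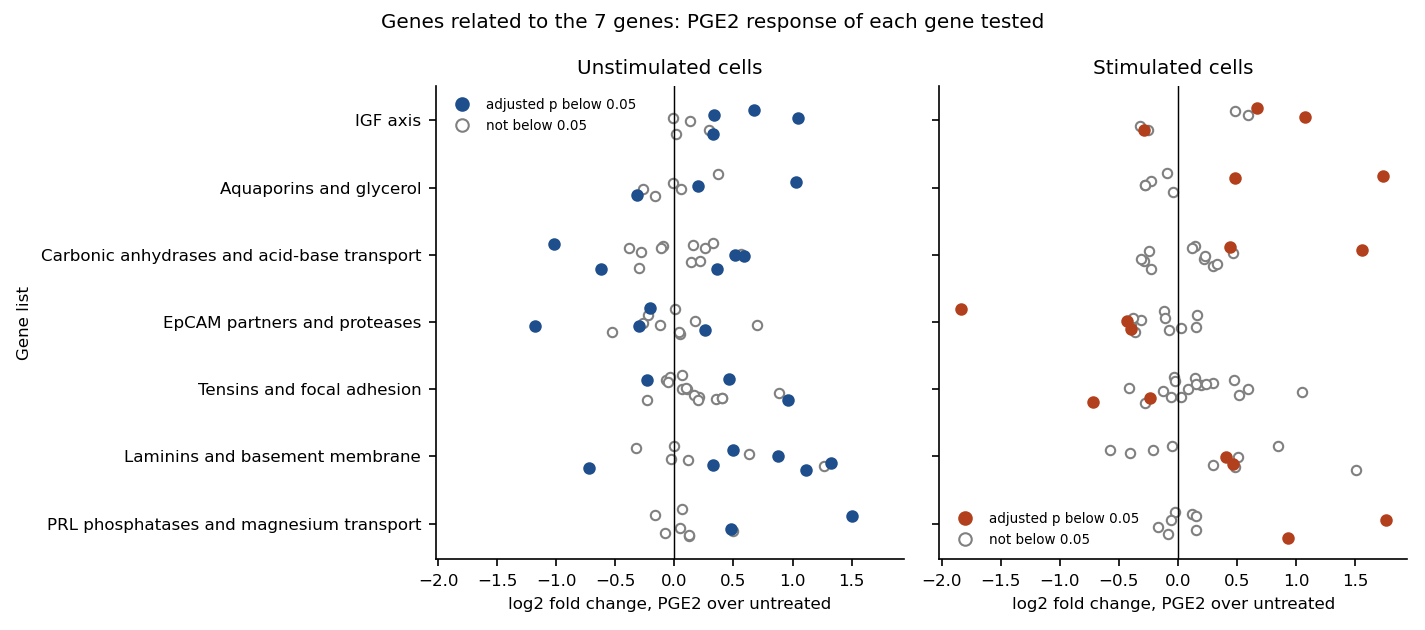
Fitted log2 fold change of PGE2 over untreated for each related gene tested, in 7 lists, in unstimulated (left) and stimulated cells (right). Filled points have an adjusted p below 0.05 (27 genes unstimulated, 16 stimulated) and open points do not. Vertical scatter within a list only separates the points. The lowest point is *Cdh1* in stimulated cells (-1.84), and filled points of the laminin list lie mostly above 0.

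The genes whose levels followed each of the 7 most closely differed between them. Pearson's r of log2 CPM was taken over the 16 samples for 12252 genes, and since the samples fall into 4 groups that share their libraries it reflects mainly the group means. *Igfbp4* was followed most closely by *Anxa6*, *Mcm3* and *Armc10* (r = 0.961, 0.958 and 0.957), and *Aqp9* by *Igfbp4*, *Drc1* and *Tmem163* (0.947, 0.938 and 0.936). After removal of the group means r was 0.801 for *Anxa6* but -0.131 for *Mcm3*. *Car12* was followed by *Nat10*, *Ifrd2* and *Bid* at r = 0.999, 0.998 and 0.998. With the group means removed r was 0.954, 0.951 and 0.928, so in these samples they also shared the spread of *Car12* between replicates. They were picked for the highest r over the same samples, which includes that spread. *Bid* shares 17.7% of its exon bases with *Bcl2l13* on the opposite strand. *Epcam* was followed by *Tnfsf9*, *Ksr1* and *Gadd45g* (0.954, 0.946 and 0.942), of which *Tnfsf9* shares 14.9% of its exon bases with an antisense transcript. For *Tns1* the closest were *Batf*, *Id3* and *Gprin3* (0.907, 0.884 and 0.884), for *Lamc1* *Cdip1*, *Snx18* and *Ppp2r3a* (0.914, 0.87 and 0.864), and for *Ptp4a3* *Rftn1*, *Dtd1* and *Tnk2* (0.966, 0.96 and 0.958). *Igfbp4* was thus the gene nearest to *Aqp9*, whereas *Aqp9* (r = 0.947) was not among the 3 nearest to *Igfbp4*.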

How the data were processed

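Bulk RNA-seq of 16 samples (4 groups of 4) was analysed. Per the labels and the study's methods, poly(A) libraries were sequenced in paired-end mode, aligned to GRCm38 with HISAT2 2.0.5 and counted with featureCounts 1.5.0-p3, and the authors compared groups with DESeq2 1.20.0. The annotation release and use of strand are not given in the sources used here. The authors deposited raw counts per gene, which were tested here, and FPKM values, which served for levels between genes.

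The counts were fitted with edgeR 4.0.16 in R 4.3.3 (filterByExpr with a minimum count of 10, TMM, glmQLFit and glmQLFTest, two-sided, Benjamini-Hochberg adjustment over all genes tested), with the 8 samples compared and no covariate, or all 16 for the difference between states. The steps were tested on simulated data. The biological coefficient of variation was 0.115 to 0.139, so for abundant genes spread between replicates limits precision more than counting does. At low levels counting limits it too, as for *Aqp9* with PGE2 and for *Cdh1*, *Slc41a2* and *Slc4a10* in stimulated cells. No pair of replicates agreed within counting noise, chi-square per degree of freedom being at least 7.89.

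Tests of stimulation planned for the 7 genes are not reported, since the choice of the genes used the same values. The 7 genes, the related and marker lists, and the rules were chosen with earlier results of these data known. Related genes are named by the up to 3 largest absolute fold changes per list and comparison at an adjusted p below 0.05 and a mean of at least 1 CPM, and some relatives of these genes by level, 1 gene not being reported here. *Ptp4a1* was left out because 2 overlapping gene models carry the symbol. Of 47 other genes named by rule, 14 share exon bases with another gene, and the 7 genes with none. Promoters are from RefSeq. Of 54532 identifiers, 54495 are in GENCODE M21.

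Same-numbered samples deviated together in the PGE2 comparisons (correlations of 0.289 to 0.495 stimulated and 0.151 to 0.48 unstimulated) and in stimulation without PGE2 (0.119 to 0.406), but not in every pair with PGE2 (0.0489 to 0.288). This pairing comes from the data, since the labels do not say what a number shares. Alternatives were DESeq2 1.42.0, RLE and upper-quartile factors, other filters, limma 3.58.1 on log2(FPKM + 1) and log2(FPKM + 0.1), the replicate block, a joint fit of all 16 and omission of each replicate in turn.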

Additional observations from a re-analysis of the deposited data

Results flagged for a closer look

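In unstimulated untreated cells *Tns1* of replicate 3 stood apart, at 25.4 CPM where the other 3 samples had 27.8 to 28.2 CPM. Its gap was 0.865 of the range, above Dixon's limit for a group of this size. This was 1 of 28 groups examined, and chance alone gives about 1 in 20.

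The response of *Igf2r* to PGE2 differed between the states. The effect in stimulated minus that in unstimulated cells was -0.604 on the log2 scale (SE 0.0907, edgeR adjusted p = 0.00382), from 123 ± 7.12 to 152 ± 11.9 CPM without beads and from 105 ± 1.99 to 85.2 ± 3.63 CPM with them (SD, n = 4). It was the 1 gene of 88 related genes to pass this test.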

How the results depend on the processing

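No result changed its direction where it was called. With limma on log2(FPKM + 1), which compresses low levels, the genes of the set called as DEGs lower with PGE2 were 2 in stimulated and 1 in unstimulated cells, in place of 4 and 4, and DEGs among all genes 57 and 117 in place of 243 and 490. The 16 related genes called in stimulated cells became 26 with DESeq2, 46 with the replicate block and 5 at a fold change of at least 2, and the 27 in unstimulated cells became 45 with the block and 7 at that fold change. The cause of the changes with DESeq2 and with the block was not tested. All genes called with PGE2 in stimulated cells, 3.8% lower and 6.04% higher, became 7.14% and 9.11% with DESeq2 and 6.14% and 8.17% in a joint fit of 16 samples. Leaving out 1 replicate gave 8 to 20 and 22 to 32 related genes in stimulated and unstimulated cells. It gave 3 to 5 genes of the set with a difference between states below 0, in place of 4, as *Igfbp4* and *Aqp9* lie near 0. The replicate block changed no DEG call of the 7 genes with PGE2, and with it *Car12* in stimulated cells was at -0.66. In 1 fit of all 16 samples the rise of *Lamc1* in unstimulated cells was 0.994, under the fold change of a DEG. Counts of 10 to 29 limit the precision for *Aqp9* with PGE2.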
